A study of Mus musculus with 6 samples.

Results

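The 10 genes Ccnd1, Ccnd2, Ccnd3, Ccne1, Ccne2, Ccna2, Ccnb1, Ccnb2, Cdc25a and Cdc25b were followed in mouse embryonic stem cells treated with cycloheximide, a compound that blocks translation elongation. They were taken by symbol from the 17485 genes of the deposited count tables, and 9 of the 10 were among the 12755 genes with enough counts to test. Ccne2 was not. The cells were the E14 line (129/Ola background), grown on gelatin in serum with leukaemia inhibitory factor, with no feeder cells named in the labels. Cycloheximide at 250 µg/mL, carried in EtOH at 0.007%, was added 24 h after seeding and left for 3 h or 6 h. Control cells had EtOH alone for 9 h, so the control exposure was longer than either treatment, and the EtOH share in the control medium is not given in the labels. Each of the 3 groups had 2 polyA RNA libraries. The labels do not say that the 2 libraries of a group came from separate cultures, so the p-values measure the spread between these libraries, which may be technical.

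Cyclins are the regulatory partners of cyclin-dependent kinases (Cdks). D-type cyclins act with Cdk4 and Cdk6 in G1, E-type cyclins with Cdk2 at entry into S phase, cyclin A2 through S phase and G2, and B-type cyclins with Cdk1 at entry into mitosis. Cdc25 phosphatases remove the inhibitory phosphates that Wee1 and Myt1 place on Cdks. The proteins of both families are short-lived, being marked for destruction by ubiquitin ligases, among them the SCF and APC/C. Embryonic stem cells are known for a short G1 phase and a rapid cycle. The measurements here are of RNA only, and in bulk RNA fewer cells in a cycle phase and less RNA per cell cannot be told apart.

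The libraries held 9385447 to 27351079 counts, the fewest in control replicate 2 and the most in 6 h replicate 1. Counts of mitochondrial genes made up 24.7% and 24.9% of the control libraries, 19.6% and 18.9% at 3 h, and 17.4% and 16.6% at 6 h, so this share was lower in the treated libraries. All 10 embryonic stem cell markers examined were detected, with a summed level of 6900 to 7034 CPM in the control libraries, 8053 to 8352 after 3 h and 5635 to 5828 after 6 h, where CPM is the usual depth scaling of a gene's count, here with TMM-scaled library totals. Of 8 fibroblast markers, which feeder cells would express, the tables list 6, with a sum of 13.8 to 18.0 CPM in the control, 11.3 to 15.4 after 3 h and 10.2 to 11.7 after 6 h. One of those 6 stayed at or under 3 counts in every library, and none was at 0 throughout. The 6 primitive endoderm markers summed to 42.7 to 52.5 CPM in the control, 51.5 to 60.6 after 3 h and 36.8 to 42.7 after 6 h, and 8 markers of primed or early differentiating cells to 66.7 to 89.4, 103 to 129 and 72.8 to 83.5. None of these 14 was at 0 throughout. The primitive endoderm sum does not show the direction of most of its genes. At 6 h 5 of the 6 had positive log2 fold changes (median 0.99), and 1 was negative and called lower. At 3 h 4 were positive and 2 negative (median 1.60), with none called. Of the 4 fibroblast markers tested, 3 were negative at 6 h, and the other was called higher. Of the 7 tested markers of primed or early differentiating cells, 1 was called higher at each time and none lower. Among the stem cell markers, 3 were called higher at 3 h and none lower. At 6 h 1 of them was called higher and 3 lower. The part that these shifts have in the results below was not tested.

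By 6 h, transcripts of most of the cyclins and of Cdc25b were lower than in the control, and Cdc25a stood apart with higher values. In the edgeR quasi-likelihood test with Benjamini-Hochberg adjustment over all tested genes, 7 of the 9 tested members fell at 6 h (Ccnd1, Ccnd3, Ccne1, Ccna2, Ccnb1, Ccnb2 and Cdc25b) and none rose (1, Cdc25a, with limma-voom and with DESeq2, and at an unadjusted p under 0.05), while 14.3% of all tested genes were called lower and 14.8% higher (threshold: adjusted p under 0.05). The median log2 fold change of the 9 was -0.68, beside 0.04 for all tested genes. The fold changes ranged from 1.32-fold lower (Ccnb2) to 1.93-fold lower (Ccnb1) among the 7. In 8 members both 6 h libraries lay below both control libraries, as did those of 31.2% of all tested genes. At 3 h only Ccna2 passed the test, against 1.30% of all genes called lower and 3.60% called higher. At that time 8 of the 9 log2 fold changes were negative, 5 of them at an unadjusted p under 0.05, with a median of -0.33 beside 0.02 for all genes. For counts of signs and of unadjusted p, here and below, no share of all tested genes is given, so they are not set against a background. In 7 members the 3 h libraries lay below the control libraries without overlap, as for 24.8% of all genes. The 3 h and 6 h comparisons share the same 2 control libraries. In the direct comparison of 6 h with 3 h, 1 member (Ccnb1) fell, against 1.18% of genes called lower and 0.455% called higher.

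These directions are on the TMM scale, which centres the bulk of genes near no change. When the library total alone set the scale, the median of all genes at 6 h moved from 0.04 to 0.40 and the share of higher calls among all calls from 50.8% to 88.1%. The median of the members was then -0.33, and 2 of them, Ccna2 and Ccnb1, were still called lower, against 3.89% of all tested genes. At 3 h the corresponding move was from 0.02 to 0.25 in the median and from 73.4% to 95.8% in the share. On that scale edgeR called no member lower at 3 h, 1 being lower and 1 higher at an unadjusted p under 0.05. DESeq2 with its own size factors called 4 members lower at 3 h, against 5.03% of all tested genes, and limma-voom 1, against 1.28%. The same 2 members were called lower at 6 h when mitochondrial counts were taken out of the library total, against 7.04% of all tested genes. Cdc25a was called higher at 6 h on both library totals. The share of all tested genes called higher was 28.8% with mitochondrial counts and 22.2% without them. Leaving out 1 library left 4 members called lower at 6 h without control replicate 1, and 2 without 6 h replicate 1 or without 6 h replicate 2. A group then has 1 library, whose spread is assumed to be that of the other groups.

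**Figure D1:**
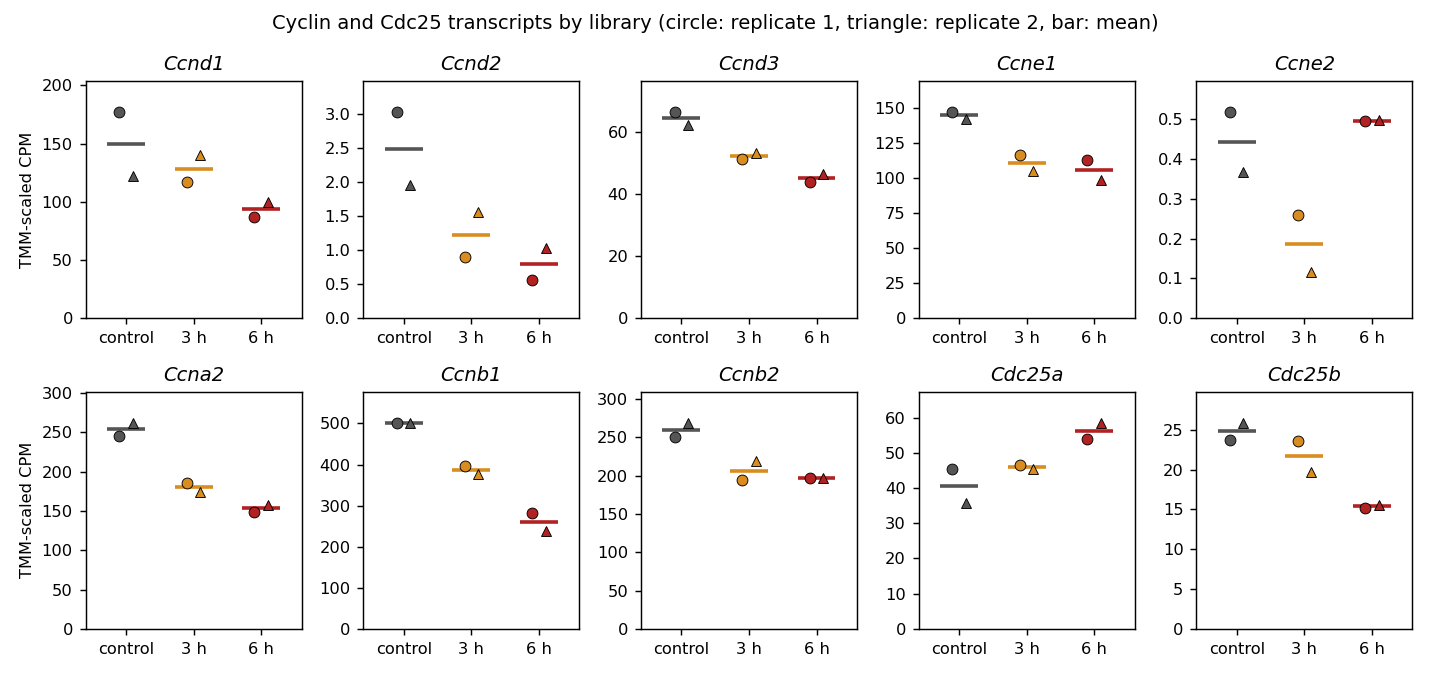
TMM-scaled CPM (vertical axes from 0) of each of the 10 genes in the control, 3 h and 6 h libraries; circles are replicate 1, triangles replicate 2 and bars the mean of the 2 libraries. Ccna2 and Ccnb1 step down from control to 3 h to 6 h with no overlap, Cdc25a has its highest values at 6 h, and Ccnd2 and Ccne2 lie near the bottom of the measured range.

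The D-type cyclins connect growth signals to the G1 Cdks. Ccnd1 (GRCm38 chromosome 7, 144929931 to 144939925, minus strand) had 177 and 122 CPM in the control libraries, 117 and 140 after 3 h, then 86.8 and 100 after 6 h. The 3 h libraries overlapped the control, and the 6 h libraries lay below all 4 others. Its log2 fold change was -0.22 ± 0.18 (SE, n = 2 per group, adjusted p = 0.495 by edgeR) at 3 h and -0.68 ± 0.19 (adjusted p = 0.0257) at 6 h. Control replicate 1 was the high library: without it the 6 h value was -0.39 (adjusted p = 0.111) and the 3 h value was 0.07. On the library total as scale the 3 h value was 0.00646, so the sign at 3 h was not settled.

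Ccnd3 (chromosome 17, 47505051 to 47599691, plus strand) had closely spaced libraries, with 66.4 and 62.3 CPM in the control, 51.3 and 53.2 after 3 h, then 43.8 and 46.2 after 6 h. The groups stepped down without overlap. The 3 h change was -0.30 ± 0.13 (adjusted p = 0.187 by edgeR), and the fall of 1.43-fold at 6 h passed the test (log2 fold change -0.52 ± 0.13, adjusted p = 0.0179). That 6 h call was lost in 5 of the 15 other settings, among them the library total as scale (-0.16, adjusted p = 0.368 by edgeR). Ccnd2 (chromosome 6, 127125162 to 127152193, minus strand), the remaining D-type cyclin, was near the limit of these libraries, with 41 and 16 counts without treatment, 14 and 27 after 3 h, then 17 and 27 after 6 h. On the CPM scale these were 3.04 and 1.95, then 0.904 and 1.56, then 0.561 and 1.03, so both treated groups lay below the control and overlapped each other. Its log2 fold changes of -1.02 ± 0.61 at 3 h (adjusted p = 0.335) and -1.66 ± 0.61 at 6 h (adjusted p = 0.0733) were the lowest fitted values among the members and did not pass the edgeR test. The 6 h value passed in 3 of the 15 other settings: without a filter (adjusted p = 0.0457), with the 1 CPM filter (0.0462) and with limma-voom (0.0401). The count ratio of Ccnd1 to Ccnd3 within a library, which does not depend on the scale, was 2.67 and 1.96 in the control, 2.28 and 2.63 after 3 h, then 1.98 and 2.16 after 6 h. All 4 treated libraries lay within the control range. A processed pseudogene, Ccnd3-ps, shares 14.1% of the 31-base words of the Ccnd3 transcript. How reads were shared between the 2 is not given in the sources used here.

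The E-type cyclins drive Cdk2 at the start of DNA replication. Ccne1 (chromosome 7, 38097984 to 38107534, minus strand) had 147 and 142 CPM in the control, 116 and 105 after 3 h, then 113 and 98.8 after 6 h. The treated libraries all lay below the control, and the 3 h and 6 h libraries overlapped each other. The log2 fold change was -0.39 ± 0.12 at 3 h (adjusted p = 0.0999 by edgeR) and -0.45 ± 0.12 at 6 h (adjusted p = 0.0254). Between 3 h and 6 h it was -0.06 ± 0.12 (adjusted p = 0.830), a value whose sign turned with the library total as the scale (0.07). On that scale the 6 h value against the control was -0.095 (adjusted p = 0.563 by edgeR). The 6 h call of Ccne1 was lost in 5 of the 15 other settings.

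Ccne2 (chromosome 4, 11191351 to 11204779, plus strand) encodes the other E-type cyclin. It was counted 7 and 3 times in the control, 4 and 2 times at 3 h, and 15 and 13 times at 6 h. In CPM these are 0.518 and 0.366, 0.258 and 0.115, and 0.495 and 0.498, where 3 counts are worth 0.0989 to 0.366 CPM depending on the library. It failed the low-count filter. Fitted without the filter, it was at -1.25 at 3 h (adjusted p = 0.707 by edgeR) and 0.15 at 6 h (adjusted p = 0.967), so no change was detectable at this depth. The gene also shares 609 exonic bases with Ints8 on the opposite strand.

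Ccna2 (chromosome 3, 36564865 to 36572150, minus strand), the cyclin of S phase and G2, had 246 and 262 CPM in the control, 186 and 175 after 3 h, then 149 and 158 after 6 h. The 3 groups formed 3 separate levels. Ccna2 fell 1.41-fold at 3 h (log2 fold change -0.49 ± 0.11, adjusted p = 0.0389 by edgeR) and 1.66-fold at 6 h (-0.73 ± 0.11, adjusted p = 0.00265). The further difference between 6 h and 3 h, -0.23 ± 0.11, did not pass the test (adjusted p = 0.292). The 6 h call held in all 15 other settings tried. The 3 h call was lost in 9 of them, with adjusted p from 0.000846 to 0.222 over the 15, among them each of the fits without control replicate 2, without either 3 h library and without either 6 h library, and the fit with a replicate block (adjusted p = 0.0587). The count ratio of Ccne1 to Ccna2 was 0.598 and 0.542 in the control, 0.624 and 0.602 after 3 h, then 0.757 and 0.627 after 6 h, so the treated libraries had the higher ratios without overlap with the control. Whether that difference exceeds chance was not tested.

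The B-type cyclins, partners of Cdk1 in mitosis, are shown here with their promoters because both genes are known for cell-cycle control through CCAAT boxes, bound by NF-Y, and CHR elements, while their 6 h values differed. The windows are RefSeq promoter sequences of build GRCm38.p6, 250 bases before the annotated start and 30 from it, on the minus strand at chr13:100786457-100786736 for Ccnb1 and chr9:70421525-70421804 for Ccnb2. Capitals mark matches to CCAAT or to the CHR-type words TTTGAA and TTTAAA, searched on both strands.
Ccnb1: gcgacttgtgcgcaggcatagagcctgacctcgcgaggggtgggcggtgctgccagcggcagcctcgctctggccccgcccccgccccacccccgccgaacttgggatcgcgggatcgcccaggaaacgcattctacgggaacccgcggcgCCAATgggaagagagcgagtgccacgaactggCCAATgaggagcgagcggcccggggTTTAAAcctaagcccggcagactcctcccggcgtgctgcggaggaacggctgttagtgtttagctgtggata
Ccnb2: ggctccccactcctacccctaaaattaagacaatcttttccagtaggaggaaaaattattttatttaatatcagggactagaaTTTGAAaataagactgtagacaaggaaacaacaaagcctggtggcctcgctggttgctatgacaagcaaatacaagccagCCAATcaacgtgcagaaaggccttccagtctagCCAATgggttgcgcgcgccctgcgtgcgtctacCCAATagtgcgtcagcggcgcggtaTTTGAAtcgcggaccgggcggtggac
The Ccnb1 window holds CCAAT from positions -99 and -67 and TTTAAA, which reads the same on both strands, from -42 relative to the start. The Ccnb2 window holds CCAAT from -87, -54 and -21, and TTTGAA from -167 and 5. Of all 32851 RefSeq promoter windows of this length, 36.1% hold CCAAT and 26.7% hold a CHR-type word, so neither match alone is rare. Whether these words have a part in the 6 h values was not tested.

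Ccnb1 (chromosome 13, 100778650 to 100786570, minus strand) had 502 and 501 CPM in the control, 396 and 377 after 3 h, then 283 and 238 after 6 h. It fell 1.93-fold at 6 h (log2 fold change -0.95 ± 0.11, adjusted p = 0.00113 by edgeR), the lowest adjusted p among the members. At 3 h it was at -0.38 ± 0.11 (adjusted p = 0.0891). Ccnb1 was also the member that fell between 3 h and 6 h (log2 fold change -0.57 ± 0.11, adjusted p = 0.0489). Its 6 h call against the control held in all 15 other settings, while the call between 6 h and 3 h was lost in 8 of them, with adjusted p from 0.000466 to 0.344. Those 8 included the replicate block (adjusted p = 0.0631) and each fit without a 3 h or a 6 h library. Ccnb1 has pseudogene copies: Ccnb1-ps shares 40.2% of the 31-base words of the Ccnb1 transcript, Gm12856 31.7% and Gm8416 29.0%. How reads were shared among such copies is not given in the sources used here, so the Ccnb1 level is uncertain to that extent.

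Ccnb2 (chromosome 9, 70407692 to 70421547, minus strand) had 250 and 269 CPM in the control, 195 and 219 after 3 h, then 198 and 196.5 after 6 h. The treated libraries were below the control, and the 6 h libraries lay inside the 3 h range. Ccnb2 fell 1.32-fold at 6 h (log2 fold change -0.40 ± 0.11, adjusted p = 0.0274 by edgeR). It was at -0.33 ± 0.11 at 3 h (adjusted p = 0.113) and at -0.07 ± 0.11 between the 2 times (adjusted p = 0.792), where the sign turned with the library total as the scale (0.06). On that scale the 6 h value was -0.04 (adjusted p = 0.799). The count ratio of Ccnb1 to Ccnb2 was 2.01 and 1.86 in the control, 2.04 and 1.73 after 3 h, then 1.43 and 1.21 after 6 h. The 6 h libraries had lower ratios than all 4 others, and this ratio is free of the scale chosen. It was not tested.

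**Figure D2:**
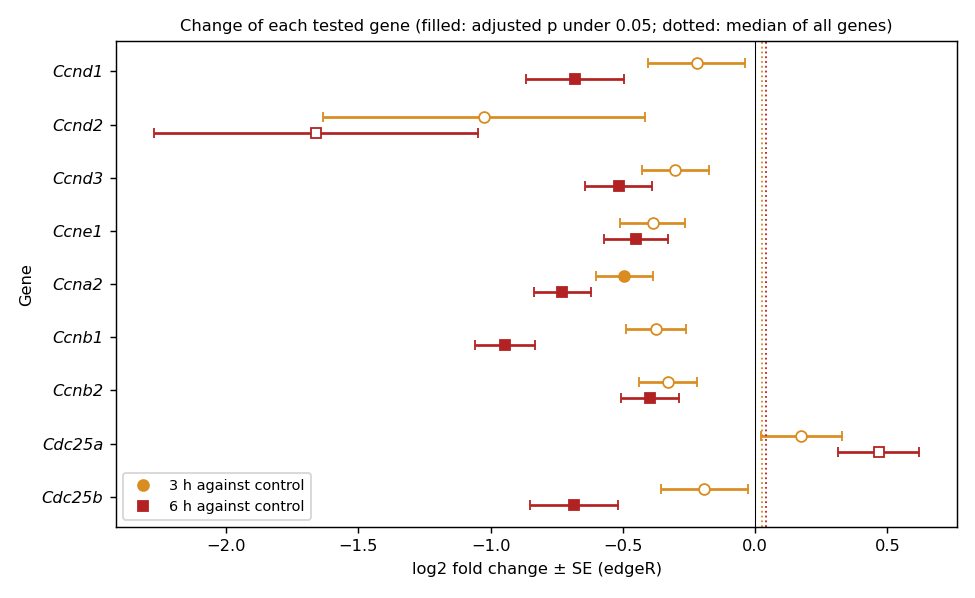
Log2 fold change against the control (horizontal axis) of the 9 tested members at 3 h (circles) and 6 h (squares), with SE bars from edgeR; filled symbols have an adjusted p under 0.05 and dotted lines mark the medians of all tested genes. The filled squares are the 7 members that fell at 6 h, from -0.40 to -0.95, Ccna2 is the only filled circle, and Cdc25a lies right of 0.

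The Cdc25 phosphatases activate Cdks, Cdc25a acting from G1/S onward and Cdc25b mainly in G2. Their promoters are shown because the transcripts of these functionally close enzymes had opposite signs at 6 h. The windows are again from RefSeq GRCm38.p6, on the plus strand at chr9:109875329-109875608 for Cdc25a and chr2:131186698-131186977 for Cdc25b. Capitals mark CCAAT on the opposite strand, which reads ATTGG here, and an E2F-type word, the motif searched as TTTGGCGC, TTTCCCGC, TTTGCCGC or TTTCGCGC on both strands.
Cdc25a: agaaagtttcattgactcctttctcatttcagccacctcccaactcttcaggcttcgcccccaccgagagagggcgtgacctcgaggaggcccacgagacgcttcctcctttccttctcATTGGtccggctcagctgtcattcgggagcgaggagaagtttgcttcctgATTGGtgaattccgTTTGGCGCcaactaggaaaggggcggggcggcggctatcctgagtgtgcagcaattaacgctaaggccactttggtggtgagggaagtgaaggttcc
Cdc25b: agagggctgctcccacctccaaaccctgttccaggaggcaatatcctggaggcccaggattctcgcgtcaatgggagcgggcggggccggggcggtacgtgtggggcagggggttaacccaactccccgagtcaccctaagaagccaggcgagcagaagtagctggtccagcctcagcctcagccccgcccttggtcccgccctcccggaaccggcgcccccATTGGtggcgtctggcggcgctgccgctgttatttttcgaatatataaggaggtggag
The Cdc25a window holds the E2F-type word TTTGGCGC from position -67 and CCAAT on the other strand from -131 and -81, and the Cdc25b window holds CCAAT on the other strand from -28. An E2F-type word occurs in 2.12% of the 32851 windows. Among the 6 members with a RefSeq window, Cdc25a alone held one of these 4 words. Only exact matches were searched, so near matches in any of the windows were not counted. Ccne1 held TTTAAA from -15, and of the 2 Ccnd3 windows one held CCAAT from -108 and the other none of the words. Windows of the other 4 members are not used here. Whether these words have a part in the opposite signs at 6 h was not tested.

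**Figure D3:**
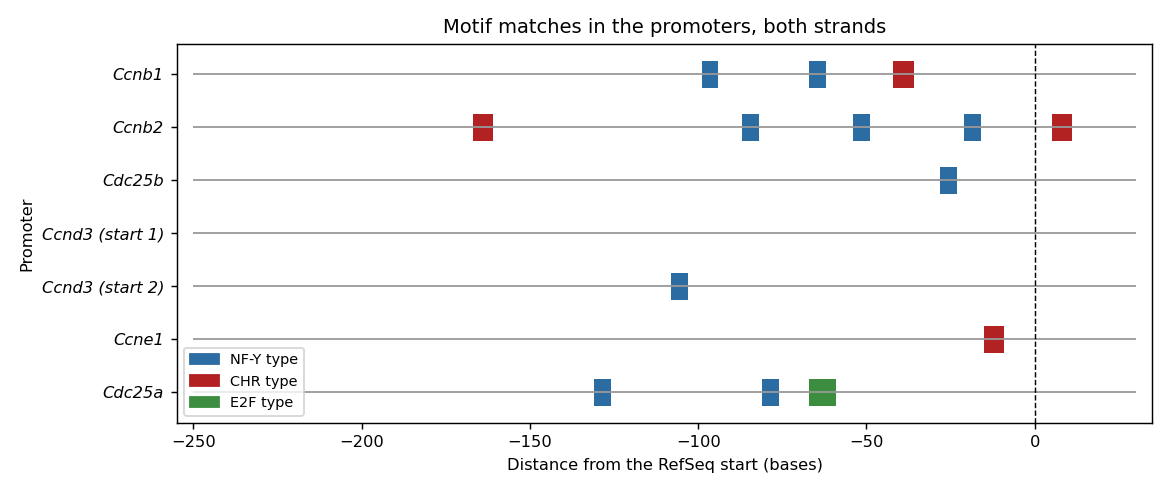
Matches to the CCAAT (NF-Y type), TTTGAA or TTTAAA (CHR type) and E2F-type words along the 7 promoter windows of 6 members, against the distance in bases from the RefSeq start (dashed line). Ccnb1 and Ccnb2 carry CCAAT words together with CHR-type words, and the E2F-type block is in Cdc25a.

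Cdc25a (chromosome 9, 109875579 to 109893895, plus strand) had 45.5 and 35.7 CPM in the control, 46.7 and 45.3 after 3 h, then 54.1 and 58.6 after 6 h. The 3 h libraries overlapped the control, and the 6 h libraries lay above all 4 others. The log2 fold change at 6 h, 0.47 ± 0.15, fell just short of the threshold (adjusted p = 0.0505 by edgeR), and that at 3 h was 0.17 ± 0.15 (adjusted p = 0.521). The 6 h value passed in 7 of the 15 other settings and kept its sign in all of them, with values from 0.31 to 0.82 and adjusted p from 0.00531 to 0.228. The direction was thus the same throughout, and the call was not.

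Cdc25b (chromosome 2, 131186949 to 131198497, plus strand) had 23.7 and 25.9 CPM in the control, 23.6 and 19.7 after 3 h, then 15.2 and 15.6 after 6 h. The 6 h libraries lay well below the other 4, which nearly met. The log2 fold change was -0.19 ± 0.17 at 3 h (adjusted p = 0.512 by edgeR) and -0.68 ± 0.17 at 6 h (adjusted p = 0.0169), a 1.61-fold fall. The difference between 6 h and 3 h, -0.49 ± 0.16, did not pass the test (adjusted p = 0.165). With the library total as scale the 3 h value of Cdc25b was 0.03 and its 6 h value -0.33 (adjusted p = 0.154 by edgeR). Its 6 h call was lost in 4 of the 15 other settings. Within a library, the count ratio of Cdc25a to Cdc25b was 1.92 and 1.38 in the control, 1.98 and 2.30 after 3 h, then 3.55 and 3.77 after 6 h. The 6 h libraries held the highest ratios, the 3 h libraries were above the control, and no scaling of the libraries enters these ratios. The third phosphatase of the family, Cdc25c, which acts at mitotic entry, rose at 6 h (12.4 and 8.55 CPM in the control, 12.4 and 13.4 after 3 h, 16.2 and 17.4 after 6 h, log2 fold change 0.67 ± 0.22, adjusted p = 0.0478 by edgeR), a call lost with DESeq2 size factors, with DESeq2 and with limma-voom.

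**Figure D4:**
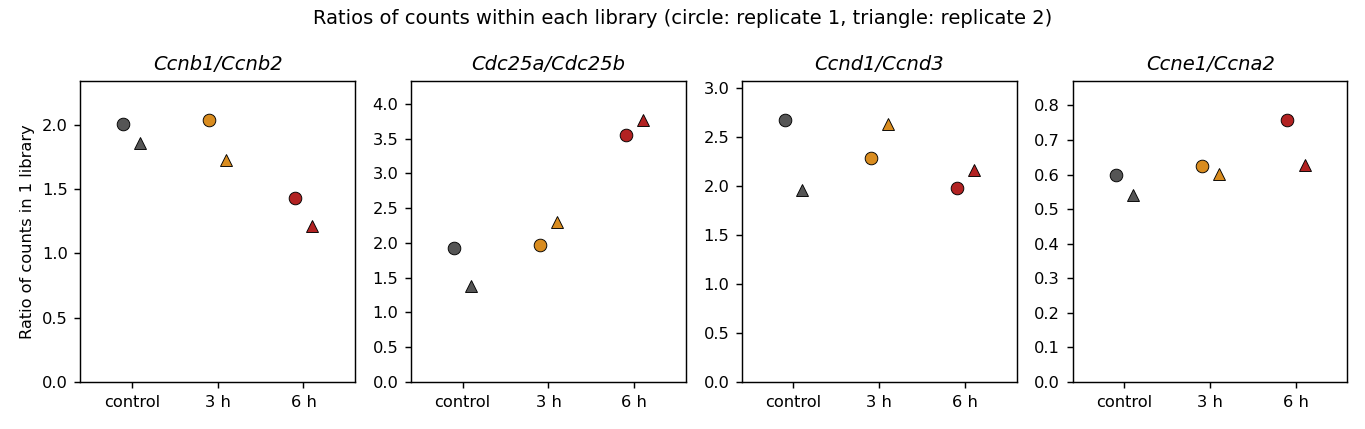
Ratios of counts between pairs of members within each library (vertical axes from 0, no units) for the control, 3 h and 6 h groups; circles are replicate 1 and triangles replicate 2. The Ccnb1/Ccnb2 ratio is lowest at 6 h (1.43 and 1.21), the Cdc25a/Cdc25b ratio is highest there (3.55 and 3.77), and all 4 treated Ccnd1/Ccnd3 ratios lie within the control range.

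Some members share sequence with neighbouring genes on the opposite strand, and whether counting used strand is not given in the sources used here, so such reads cannot be told apart. The exonic overlap is 1100 bases for Ccnd1 with LTO1, 510 for Ccna2 with Exosc9, 361 for Ccnd3 with Bysl and 92 for Cdc25b with Spef1, and Ccnd2 overlaps the antisense gene 9330179D12Rik over 368 bases. Exosc9, with a mean of 6.22 CPM in the control, and Bysl, with 41.7, were at -0.14 and -0.14 at 6 h (adjusted p = 0.790 and 0.523 by edgeR). The word TATTTAT, a common form of AU-rich element, occurs 1 time in the annotated 3′UTR of Ccnd1, Ccne2, Ccna2 and Ccnb1 and in none of the other 6, beside 28.6% of 11518 tested genes with such an annotation. Whether the word has a part in the 6 h values was not tested.

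The counts of 8 lists of other cell-cycle genes are read against the share of all tested genes called at 6 h, 14.3% lower and 14.8% higher on the TMM scale and 3.89% lower and 28.8% higher with the library total as scale. At 3 h the shares on the TMM scale were 1.30% lower and 3.60% higher. For 6 h against 3 h they were 1.18% lower and 0.455% higher. Of 12 Cdk kinases and direct regulators, 6 fell at 6 h and 2 rose, with a median log2 fold change of -0.47, and 1 fell at 3 h. With the library total as scale, Cdk1 and Cks2 fell and 3 genes rose at 6 h, the median was -0.11, and none was called at 3 h. At an unadjusted edgeR p under 0.05, 3 were lower and 0 higher at 3 h on the TMM scale, while 0 were lower and 3 higher with the library total. Cks2, a small Cdk-binding subunit, had 552 and 499.8 CPM in the control, 378 and 451 after 3 h, then 199 and 213 after 6 h (log2 fold change at 6 h -1.35 ± 0.12, adjusted p = 0.000309 by edgeR). It was the 1 gene of this list that fell between 3 h and 6 h (-1.01 ± 0.12, adjusted p = 0.00835 by edgeR). Cdk1, the mitotic kinase bound by B-type cyclins and cyclin A2, had 735 and 742 CPM in the control, 489 and 579 after 3 h, then 397 and 375 after 6 h. It was the member of this list that fell at 3 h (-0.47 ± 0.11, adjusted p = 0.0496), a call lost with the library total as scale, with or without mitochondrial counts, and it was at -0.94 ± 0.11 at 6 h (adjusted p = 0.00106). The 2 that rose at 6 h, Mnat1 (0.59) and Cdc25c, are named after their values were seen, Mnat1 being an assembly factor of the Cdk-activating kinase. The call of Cdc25c was lost with DESeq2 size factors, DESeq2 and limma-voom.

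Among 11 Cdk inhibitors and pocket proteins, 2 rose at 6 h, with a median of 0.43 (also 2 with the library total as scale, with a median of 0.79), and 9 did not pass the test. That is 2 of 11 beside 14.8% of all tested genes called higher, or 28.8% with the library total, so the count is not set apart from the background. Cdkn2d, the Cdk4 and Cdk6 inhibitor p19, had 7.26 and 8.43 CPM in the control, 13.1 and 15.0 after 3 h, then 20.3 and 19.5 after 6 h. It rose at 3 h (log2 fold change 0.85 ± 0.19, adjusted p = 0.0463 by edgeR, a call lost with limma-voom) and at 6 h (1.35 ± 0.19, adjusted p = 0.00229). The other was Cdkn1b (p27), an inhibitor of Cdk2 complexes named after its values were seen, at 0.71 ± 0.15 at 6 h (adjusted p = 0.0110).

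The other cyclins, of which 13 were tested, split at 6 h into 5 that rose and 4 that fell, with a median of 0.10 (5 and 2 with the library total as scale). Ccnl1, a cyclin of transcription and splicing kinases, had 47.5 and 33.6 CPM in the control, 169 and 131 after 3 h, then 198 and 228 after 6 h, and it rose at both times (log2 fold change 1.88 ± 0.20 with adjusted p = 0.00195, and 2.38 ± 0.20 with adjusted p = 0.000207, by edgeR). Named after their values were seen, the others that rose at 6 h were Ccng2 (1.26), Ccnt2 (0.79), Ccnt1 (0.63) and Ccnl2 (0.47), and those that fell were Ccni (-1.04), Ccnf (-0.78), Ccny (-0.61) and Ccng1 (-0.56). Ccnt2 lost its call with DESeq2 and with limma-voom, and Ccny and Ccng1 lost theirs with the library total as scale. At 3 h 2 rose (Ccnl1 and Ccnl2), against 3.60% of all tested genes, and 2 fell (Ccng1 and Ccni), against 1.30%. With the library total as scale 4 rose at 3 h, against 10.3%, and none fell. Ccnt1 and Ccnt2 are the cyclins of the transcription elongation kinase Cdk9.

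Genes of the G2/M programme were lower at 6 h where they passed the test on the TMM scale. Of 29, 12 fell at 6 h and 17 did not pass the test, with a median of -0.36 (with the library total as scale Plk1 and Kif23 fell and 3 genes rose, and the median was -0.00803). At 3 h edgeR and limma-voom called none of them. DESeq2 called 5 lower, against 5.03% of all tested genes, and edgeR with the library total as scale called 2 higher, against 10.3%. At an unadjusted edgeR p under 0.05, 10 were lower and 1 higher on the TMM scale, while 0 were lower and 2 higher with the library total. No share of all genes is given for these unadjusted counts. Plk1, the Polo-like kinase that activates Cdc25 and Cdk1 at mitotic entry, had 138 and 152 CPM in the control, 101 and 111 after 3 h, then 63.9 and 59.2 after 6 h. It was at -0.45 ± 0.12 at 3 h (adjusted p = 0.0697 by edgeR), fell by 6 h (-1.23 ± 0.12, adjusted p = 0.000485), and was the 1 gene of the list that fell between 3 h and 6 h (-0.78 ± 0.12, adjusted p = 0.0211).

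Of 25 ubiquitin ligase genes listed as acting on cyclins and Cdc25, mostly of the APC/C and SCF, 7 fell and 2 rose at 6 h, with a median of -0.09 (with the library total as scale Cdc20 and Ube2c fell, 3 genes rose and the median turned to 0.27). The 2 that rose are a smaller share than the 14.8% of all tested genes called higher. Cdc20, the mitotic APC/C activator, had 95.5 and 109 CPM in the control, 75.4 and 74.1 after 3 h, then 61.8 and 55.5 after 6 h (log2 fold change at 6 h -0.80 ± 0.13, adjusted p = 0.00379 by edgeR). Ambra1, a substrate receptor through which D-type cyclins are degraded, was in the list but is part of neither the APC/C nor the SCF. Its libraries had 33.4 and 21.9 CPM in the control, 47.8 and 50.9 after 3 h, then 49.2 and 48.8 after 6 h. It rose at 3 h (0.83 ± 0.19, adjusted p = 0.0496, a call lost with DESeq2 size factors and with limma-voom) and at 6 h (0.81 ± 0.19, adjusted p = 0.0157). The other gene that rose at 6 h was Anapc7 (0.82), an APC/C subunit, named after its value was seen.

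The E2F factors and G1/S genes, 30 in all, were divided at 6 h into 3 that rose and 3 that fell, with a median of -0.06 (with the library total as scale 12 rose, none was called lower and the median turned to 0.30). Each count of 3 in 30 is below the share of all tested genes called in that direction, 14.8% higher and 14.3% lower. Pcna, the sliding clamp of DNA polymerases, had 4177 and 4226 CPM in the control, 3532 and 3422 after 3 h, then 3003 and 2997 after 6 h (log2 fold change at 6 h -0.49 ± 0.08, adjusted p = 0.00422 by edgeR). Cdt1, a factor that licenses replication origins, had 221 and 210 CPM in the control, 309 and 316 after 3 h, then 305 and 297 after 6 h, and rose at 3 h (0.53 ± 0.10, adjusted p = 0.0235) and at 6 h (0.48 ± 0.10, adjusted p = 0.00899). Named after their values were seen, the others were Cdc6 (0.60) and Slbp (0.40), which rose, and Tk1 (-0.50) and Gmnn (-0.44), which fell. The calls of Pcna, Tk1 and Gmnn were all lost with the library total as scale. Cdc6 and Cdt1 act in origin licensing, and Gmnn encodes geminin, the inhibitor of Cdt1.

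Of 4 checkpoint kinases, Chek2 fell at 6 h, with 18.4 and 25.2 CPM in the control, 20.7 and 18.9 after 3 h, then 14.6 and 13.5 after 6 h (log2 fold change -0.62 ± 0.19, adjusted p = 0.0412 by edgeR), a call that was lost with limma-voom and with the library total as scale. Atm had the lowest p of the 4 at 3 h without passing the test (-0.20 ± 0.16, adjusted p = 0.457).

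The regulators of D-type cyclin transcription, of which 9 were tested, had the widest changes among these lists. At 3 h 3 rose, against 3.60% of all tested genes called higher, and 6 did not pass the test. Jun, a subunit of the AP-1 factor, had 25.8 and 25.9 CPM in the control, 214 and 293 after 3 h, then 139 and 140 after 6 h (log2 fold change 3.29 ± 0.17 with adjusted p = 4.53e-05 at 3 h, and 2.43 ± 0.16 with adjusted p = 7.52e-05 at 6 h, by edgeR). At 6 h 3 rose and 3 fell, with a median of 0.40 (4 and 2 with the library total as scale). Named after their values were seen, the others were Fos (3.21 at 3 h and 1.28 at 6 h), Egr1 (4.10 at 3 h, when it was the third gene to rise), Stat3 (0.63 at 6 h), Myc (-1.40 at 6 h), Mycn (-1.33 at 6 h) and Ctnnb1 (-0.58 at 6 h). The 6 h call of Fos was lost with limma-voom and that of Ctnnb1 with the library total as scale. Myc, Mycn, Jun, Fos and Egr1 were called lower at 6 h in the direct comparison with 3 h. That is 5 of the 9, against 1.18% of all tested genes. With the library total as scale it was 4, Jun losing its call, against 0.729%. Myc, a proto-oncogene factor known to act on D-type cyclin and Cdc25a genes, had 96.3 and 120 CPM in the control, 93.0 and 112 after 3 h, then 48.7 and 32.8 after 6 h.

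**Figure D5:**
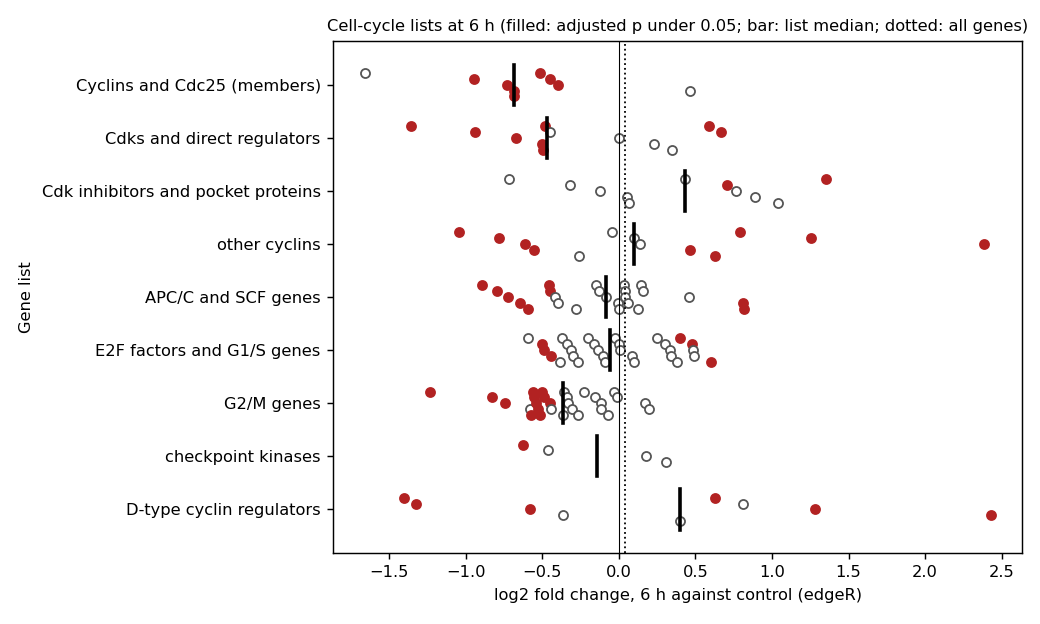
Log2 fold change at 6 h against the control (horizontal axis) of the tested members and of the genes of 8 cell-cycle lists, 1 circle per gene, filled where the adjusted p was under 0.05; thick bars are list medians and the dotted line is the median of all tested genes. The members have the lowest list median (-0.68), the G2/M genes have no filled circle right of 0, and the 2 filled circles of the Cdk inhibitors are right of 0.

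The pattern over the 6 libraries was compared between each tested member and 133 listed genes by Pearson's r of log2 CPM, as a description over libraries that share groups and depth. Ccna2 was most like Ccni (r = 0.997), Cdc25b most like Cul1 (0.988), Cdc25a most like Cdc25c (0.985), Ccnb1 most like Plk1 (0.982), Ccnd3 most like Mad2l1 (0.977) and Ccnb2 most like Ccnh (0.974). For Ccnd1 the gene was Cks1b (0.964), for Ccnd2 it was Rbx1 (0.960) and for Ccne1 it was Cdk7 (0.919). Among the members themselves, Ccna2 and Ccnd3 were the closest pair (0.959), followed by Ccnb1 and Cdc25b (0.944). Cdc25a was the least like member of each of the other 8, with r from -0.50 to -0.89.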

How the data were processed

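PolyA RNA was sequenced as 6 libraries, in 3 groups of 2. Per the file headers and values, the authors deposited 1 table of whole-number counts per gene and library, not normalized. The build was mm10 per the submitters' processing notes. The aligner, counting program, annotation and strand setting are not given in the sources used here. Groups and replicate numbers came from the sample titles.

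Counts were scaled by TMM with the full library totals, and genes were kept by filterByExpr in edgeR 4.0.16 (minimum count 10, minimum total 15), which left 12755 of 17485. One quasi-likelihood fit over all 6 libraries with a mean per group (3 residual degrees of freedom) gave each comparison, with Benjamini-Hochberg adjustment over all tested genes and a call at adjusted p under 0.05. The SE is the log2 fold change divided by the root of the F statistic. The fit was tested on simulated data. Replicates of a group differed by more than counting noise (chi-square per degree of freedom 20.0 to 29.8). A row named eGFP, with at most 2 counts, has no chromosome.

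The members and gene lists were chosen with earlier results of these data known. The rule for names beyond the members took, from each list, the gene with the smallest p at 6 h and at 3 h, and the listed gene most like each member. Other genes named from small counts were chosen after their values were seen. The alternatives were DESeq2 size factors, the library total alone, no filter beyond 1 count, 1 CPM in every library of a group, DESeq2 1.42.0, limma-voom (limma 3.58.1), the compared libraries alone, a replicate block, and each library left out. The library total without mitochondrial counts was added after seeing the data. Gene models are from GENCODE M21 (GRCm38), and promoter windows from RefSeq GRCm38.p6, matched by symbol for 6 of 10 members.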

Additional observations from a re-analysis of the deposited data

Results flagged for a closer look

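Ccnb1 stood out because its difference from the control changed between the 2 exposure times in a direct test: its log2 fold change for 6 h against 3 h was -0.57 ± 0.11 (edgeR quasi-likelihood test, adjusted p = 0.0489), with both 6 h libraries below both 3 h libraries. The adjusted p ran from 0.000466 to 0.344 over the 15 other settings.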

How the results depend on the processing

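Over 405 single-gene values of the 9 tested members under the 15 other settings, 339 kept their direction and side of the threshold, 41 lost the call, 15 gained one and 10 turned in sign. The cause was not tested for any of these, except that leaving libraries out also leaves fewer samples. Genes changed at 3 h (625) numbered 1373 with the library total alone, 1816 without a filter, 1437 with DESeq2 and 218 from the compared libraries alone, and 108 to 1033 with 1 library left out. At 6 h (3704) they numbered 1313 to 3578 with 1 library left out. For 6 h against 3 h (209) they numbered 1063 without a filter, 667 with DESeq2, 508 with limma-voom, 563 from the compared libraries alone, and 14 to 595 with 1 library left out. The members called lower at 3 h (1) numbered 0 with the library total, with that total without mitochondrial counts and from the compared libraries alone, 2 without a filter and 4 with DESeq2, and 0 to 1 with 1 library left out. At 6 h (7) they numbered 2 with either library total and 2 to 7 with 1 library left out. For 6 h against 3 h (1) they numbered 0 with DESeq2 size factors and with either library total, 2 without a filter, and 0 to 1 with 1 library left out. Signs turned with the library total for Ccnd1 at 3 h (0.00646), Cdc25b at 3 h (0.0344), and Ccne1 (0.0655) and Ccnb2 (0.0600) between 6 h and 3 h, and with that total without mitochondrial counts for Ccne1 (0.0264) and Ccnb2 (0.0211) between 6 h and 3 h. With 1 library left out, these ran from -0.462 to 0.0708 for Ccnd1 at 3 h, from -0.164 to 0.0303 for Ccne1 and from -0.147 to 0.0173 for Ccnb2. The share of higher calls for 6 h against 3 h moved from 27.8% to 56.5% with the library total, to 44.1% without a filter and to 44.2% from the compared libraries alone; that at 3 h moved to 55.4% with DESeq2.

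Whether the replicate numbers pair the libraries is not given in the labels. Same-numbered libraries deviated from their group means with correlations of 0.0942, -0.0243 and 0.0172. These values cannot show whether such libraries shared a culture or day. With the replicate block, 425 genes were called at 3 h, 3547 at 6 h and 126 for 6 h against 3 h, and the members called lower numbered 0, 7 and 0. Depth limits Ccnd2 and Ccne2, with at most 41 and 15 counts in a library, and 2 libraries per group limit every call.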
